A study of Rattus norvegicus with 21 samples.

Results

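Glycolysis and pyruvate handling was followed here as a set of 38 genes, from the transporters that bring glucose into the cell to the enzymes that pass pyruvate into mitochondria. The members were the rows of the mRNA table that carry one of these gene symbols and reach a mean of at least 10 normalized counts over the 9 mRNA libraries. Of the 38 genes 33 met this rule, out of 32750 rows in the table, of which 14410 reached the same mean. The cells were the insulinoma line INS-1 832/13, which came from a rat beta cell tumour and still secretes insulin. The mRNA libraries were made from cells left untreated (4 libraries) or exposed for 24 h to 1 µM inorganic arsenic (iAs, 5 libraries), 24 h after seeding. Cadmium and manganese were profiled by small RNA alone, so the members have no value under those metals. Both groups are the same single line. Whether the libraries were grown as separate cultures is not labelled, and the p-values here therefore reflect library-to-library spread that may be technical.

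Glycolysis splits a glucose molecule into pyruvate and yields ATP and NADH on the way. Beta cells are known for using this pathway as a glucose sensor: glucose enters through transporters and is phosphorylated, and pyruvate is passed almost wholly to mitochondria, whose ATP triggers insulin release. Normal beta cells keep lactate dehydrogenase A, the monocarboxylate transporter MCT1 and low-Km hexokinases at very low levels, which holds glycolysis to its sensing role.

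Column totals ran from 51009800 to 55869159 normalized counts over the 9 libraries. Dividing each by the lowest step seen among its values gives an estimate of 44640824 to 65634001 reads. Markers of the beta cell line were abundant (11 of 12 listed genes had a row and all 11 were tested), although liver is entered as the tissue in the labels. Of these 11 genes 2 rose (18.2%), 1 fell (9.09%) and 8 did not pass. Over all genes tested 15.1% rose and 14.9% fell. Of 8 hepatocyte markers 4 were tested, and 1 of these, Apob, fell (-0.83, adjusted p = 0.020). Cyp2e1 was listed at 0 in every library, and Alb had a mean of 0.402 normalized counts in the libraries labelled iAs and 0 in those labelled untreated. The summed level of the 8 ran from 4245 to 5042 and from 4258 to 5493, most of it Hnf4a, which beta cells also express, with means of 4067 and 4280, and Serpina1 had means of 391 and 274. Of 6 fibroblast, endothelial and immune markers 3 were tested, of which Thy1 and Col1a1 fell and Cd68 rose. Thy1 had means of 11389 (untreated) and 7836 (iAs), with a limma adjusted p of 0.0056. Col1a1 (means 19.5 and 5.33, adjusted p = 0.044) and Cd68 (23.3 and 44.1, adjusted p = 0.04997) had few counts and lay close to the threshold of 0.05. The summed level of these markers ran from 9231 to 12813 normalized counts in the libraries labelled untreated and from 5814 to 8511 in those labelled iAs. Nearly all of it was Thy1, and Ptprc was listed at 0. The part of this difference in the results below was not tested. Untreated replicate 4 and iAs replicate 2, which share a code ending (the last digits of the library code) that no other library has, stood apart together in several genes outside the pathway. Psat1, a gene of serine synthesis, had 10806 and 11511 normalized counts in them, against 3989 to 5427 in the other 7 libraries. Without both, 15 members were called higher and 4 lower, and the part of this code in the results was not tested further. Hmox1, the heme oxygenase gene known to be induced by arsenic, had a mean level of 14132 ± 1727 (SD, n = 4) in the untreated group by label and 1739 ± 465 (SD, n = 5) in those labelled iAs. This goes against the group labels, and every direction given here rests on those labels. Per the column names all libraries labelled untreated carry lane 3 and all labelled iAs carry lane 4: group cannot be told apart from lane. In such bulk samples fewer cells of a type and less RNA per cell cannot be told apart either.

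Which steps of the pathway differ in mRNA level was asked by setting the iAs libraries against the untreated ones. Most steps from glucose 6-phosphate to pyruvate were higher in the libraries labelled iAs, while the genes for lactate dehydrogenase B and for a subunit of the mitochondrial pyruvate carrier were lower. Of the 33 tested members 16 rose, which is 48.5% of them, against 15.1% of all genes tested that rose (limma, Benjamini-Hochberg adjusted p under 0.05 over all 14410 genes). The falls numbered 3, which is 9.09% of the members, against 14.9% of all genes tested. The other 14 members did not pass the test. Together 30.0% of all genes tested were called. The groups did not overlap for 14 of the members that rose and for all 3 that fell, 51.5% of the tested members, against 25.9% of all genes. The median log2 difference of the tested members was 0.31, and they ranged from -1.82 (Galm) to 1.43 (Pfkfb3). A log2 difference is taken on the log2(normalized count + 1) scale, as iAs minus untreated, which damps the changes of genes with few counts. Several abundant genes outside the pathway, picked after their values were seen, also rose, with log2 differences of 0.25 for the actin gene Actb, 0.41 for the ribosomal protein gene Rplp0 and 0.41 for the elongation factor gene Eef1a1.

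**Figure D1:**
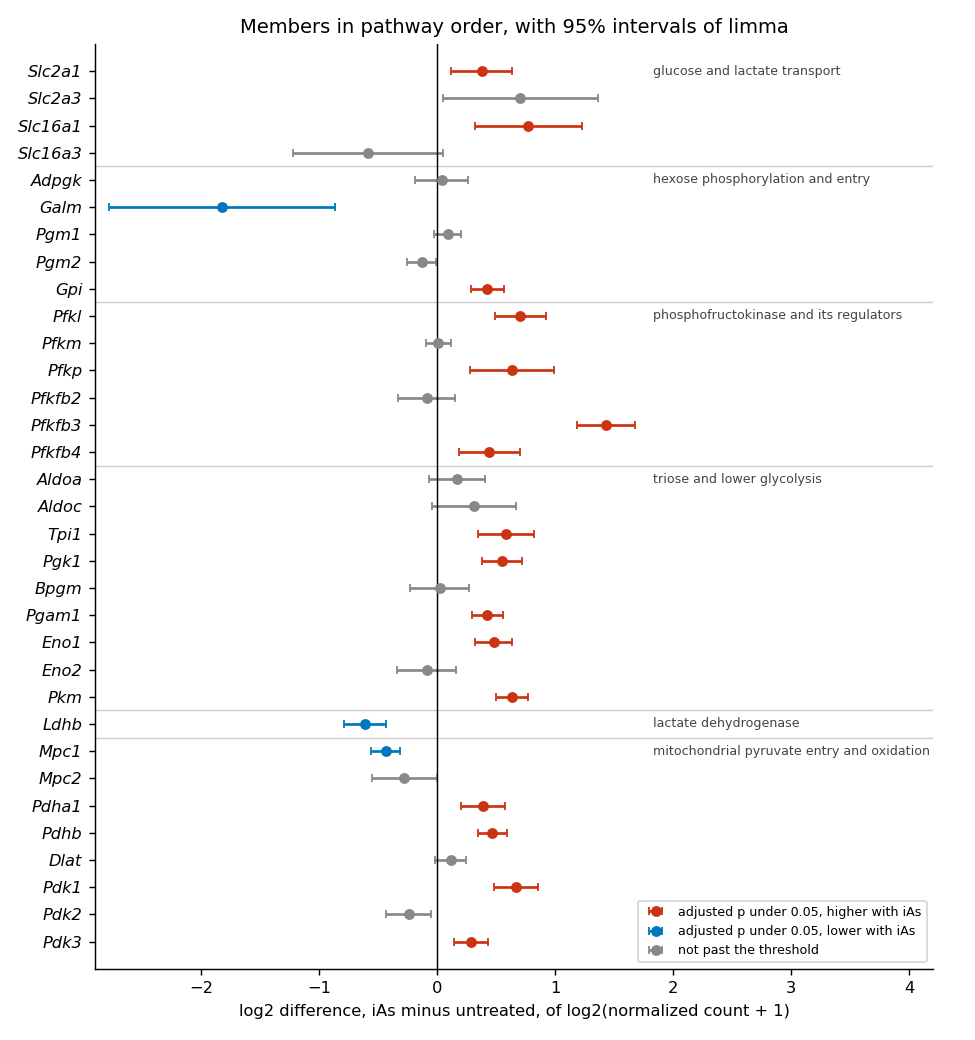
Log2 difference (iAs minus untreated) of each tested member, in the order of the pathway from top to bottom, with the 95% interval from limma as a bar; red points passed the threshold and were higher, blue points passed it and were lower, and grey points did not pass. Pfkfb3 lies farthest to the right at 1.43, and Galm, Ldhb and Mpc1 are the blue points to the left of 0.

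Members outside the test were few. Hk1, Ldha and Pdk4 were listed at 0 in every library, as were 13250 rows of the table, among them 3 of 76 rows with a ribosomal protein gene symbol. A 0 in this table can stand for a failed assignment of reads, so it is not read as absence of the transcript. Hk2, the hexokinase of muscle and many tumours, lay just outside the rule with a mean of 6.33 normalized counts over the 9 libraries. Its values were 0.808, 2.10, 6.51 and 0.985 in the libraries labelled untreated (replicates 1 to 4) and 7.55, 6.01, 15.4, 8.62 and 9.05 in those labelled iAs (replicates 1 to 5). The groups overlapped at this low level. Galm, with a mean of 22.3, was the member just inside. Gapdh was not matched by its symbol and is not analysed here.

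The promoters of 31 of the 33 tested members were matched by symbol in a RefSeq table of the GRCr8 build. The following 6 are shown because they belong to relatives that differed in their response, Pfkfb3 beside Pfkfb2 and Pfkl beside Pfkm, and to 2 genes whose enzymes use pyruvate, Pdhb, which rose, and Ldhb, which fell. Each is the 250 bases before the annotated start, 5′ to 3′ on the gene's strand. Capitals mark ACGTG on either strand, a form of the core letters of the sites bound by hypoxia-inducible factors. The other form, GCGTG, was neither marked nor counted, and it stands in the Pfkl, Pdhb and Ldhb sequences below. The counts of ACGTG are therefore not counts of all such core letters.
Pfkfb3 (chr17:71944683-71944932, plus strand): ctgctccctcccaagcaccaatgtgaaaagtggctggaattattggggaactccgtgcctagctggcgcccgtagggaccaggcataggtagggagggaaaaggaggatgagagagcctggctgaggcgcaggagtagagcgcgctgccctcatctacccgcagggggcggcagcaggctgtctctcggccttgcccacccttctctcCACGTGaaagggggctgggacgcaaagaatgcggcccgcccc
Pfkfb2 (chr13:44726972-44727221, minus strand): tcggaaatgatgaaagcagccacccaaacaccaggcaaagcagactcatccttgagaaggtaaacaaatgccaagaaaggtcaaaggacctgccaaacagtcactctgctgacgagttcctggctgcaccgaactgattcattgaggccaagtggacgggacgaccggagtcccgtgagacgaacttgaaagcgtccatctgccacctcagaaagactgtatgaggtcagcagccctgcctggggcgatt
Pfkl (chr20:10663715-10663964, plus strand): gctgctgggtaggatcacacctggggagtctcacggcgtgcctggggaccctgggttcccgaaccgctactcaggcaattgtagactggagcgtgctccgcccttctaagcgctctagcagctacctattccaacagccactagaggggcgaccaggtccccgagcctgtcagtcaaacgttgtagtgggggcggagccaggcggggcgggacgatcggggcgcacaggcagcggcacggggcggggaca
Pfkm (chr7:131113849-131114098, plus strand): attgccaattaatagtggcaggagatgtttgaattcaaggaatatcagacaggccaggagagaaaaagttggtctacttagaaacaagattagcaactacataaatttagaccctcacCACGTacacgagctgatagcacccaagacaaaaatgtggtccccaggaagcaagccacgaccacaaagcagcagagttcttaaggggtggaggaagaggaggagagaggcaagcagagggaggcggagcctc
Pdhb (chr15:19182539-19182788, plus strand): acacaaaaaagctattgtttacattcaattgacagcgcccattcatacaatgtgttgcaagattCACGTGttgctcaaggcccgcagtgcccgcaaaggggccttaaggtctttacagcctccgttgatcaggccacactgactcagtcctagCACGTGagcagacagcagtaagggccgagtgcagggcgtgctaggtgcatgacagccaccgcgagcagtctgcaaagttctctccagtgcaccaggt
Ldhb (chr4:177177409-177177658, minus strand): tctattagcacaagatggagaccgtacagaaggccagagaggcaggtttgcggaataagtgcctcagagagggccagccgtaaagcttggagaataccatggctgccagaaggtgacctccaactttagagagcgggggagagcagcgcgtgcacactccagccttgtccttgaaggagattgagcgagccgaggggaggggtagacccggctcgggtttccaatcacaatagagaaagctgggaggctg
In Pfkfb3 the letters form 1 copy of CACGTG, a sequence known as an E-box, and Pdhb holds 2 copies. CACGTG contains ACGTG on both strands, so it counts for both motifs. Pfkm, which did not pass the test, also holds ACGTG, while Pfkl, Pfkfb2 and Ldhb do not. ACGTG stood in the promoters of 15 of the 31 matched members (48.4%), against 16.6% of all 33469 promoters of this length in the table. A member with several annotated starts counts once, if any of its promoters holds the letters, which favours the members in this comparison. The letters were in 6 of the 15 matched members that rose, in 1 of the 3 that fell (Galm) and in 8 of the 13 that did not pass. CACGTG stood in 3 of the 15 that rose (Pfkfb3, Pdhb and Slc16a1), in none of the 3 that fell and in 1 of the 13 others (Pdk2), against 5.59% of all promoters. These matches are a description of letters and show no binding.

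Among the 4 carriers of glucose and lactate 2 rose. Slc16a1, which encodes the lactate and pyruvate carrier MCT1, had 308, 146, 259 and 248 normalized counts in the libraries labelled untreated and 329, 434, 316, 463 and 467 in those labelled iAs. The iAs libraries were all higher, though untreated replicate 1 came close to the lowest of them. The log2 difference was 0.77 (SE 0.21, limma adjusted p = 0.015), and it was 0.55 within the 2 untreated and 3 iAs libraries whose code ends in 52, where it was not called (adjusted p = 0.068). Slc2a1, the gene of the widely expressed glucose transporter GLUT1, rose from 3294 ± 584 (SD, n = 4) to 4247 ± 488 (SD, n = 5), a log2 difference of 0.38 (adjusted p = 0.032), with overlapping groups. The call did not hold when any of these libraries was left out: untreated 1 or 3, or iAs 1, 3, 4 or 5, with adjusted p from 0.058 to 0.095. It was also lost with equal library totals (adjusted p = 0.055). The values of Slc2a3, the high-affinity transporter GLUT3, ran from 48.9 to 129 in the libraries labelled untreated and from 104 to 244 in those labelled iAs (log2 difference 0.70, adjusted p = 0.098), and passed the threshold without untreated replicate 4 (0.91, adjusted p = 0.046) and with the code ending as a covariate. Slc16a3, the lactate exporter MCT4, had 42.5 ± 10.1 and 28.1 ± 7.86 normalized counts (log2 difference -0.59, adjusted p = 0.15).

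Among the genes that feed sugars into the pathway Gpi rose and Galm fell. Gpi, whose enzyme turns glucose 6-phosphate into fructose 6-phosphate, had 27529, 32384, 30574 and 33825 normalized counts in the libraries labelled untreated and 43823, 39835, 40528, 42065 and 41841 in those labelled iAs. Every iAs library lay above every untreated one, by a mean of 1.34-fold (log2 difference 0.42, SE 0.06, adjusted p = 0.000462). Galm, which encodes the mutarotase that interconverts the forms of galactose and glucose, had 29.1, 47.2, 35.0 and 34.6 normalized counts against 5.4, 14.4, 7.1, 5.7 and 22.1. The groups did not overlap (log2 difference -1.82, SE 0.44, adjusted p = 0.0084), but these values are worth few reads, and within the code ending 52 the difference of -1.72 was not called (adjusted p = 0.11). The 3 other tested genes of this group did not pass. Pgm1 and Pgm2, the phosphoglucomutases that link glycogen and glycolysis, differed by 0.09 and -0.13, and Adpgk, a sugar kinase that uses ADP, by 0.04 with a 95% interval of -0.19 to 0.26. Equal library totals brought Pgm2 past the threshold (adjusted p = 0.034).

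Phosphofructokinase commits sugar to glycolysis, and its subunit genes responded unequally. Pfkl, the liver-type subunit, had 10384, 14621, 13740 and 15040 normalized counts in the libraries labelled untreated and 23817, 20346, 19805, 22252 and 22356 in those labelled iAs. The groups lay far apart, with a 1.61-fold higher mean (log2 difference 0.70, SE 0.10, adjusted p = 0.000325). Pfkp, the platelet-type subunit, had 3274, 4622, 5104 and 6257 against 7529, 6854, 5742, 8646 and 7974. Its groups overlapped, since iAs replicate 3 lay under untreated replicate 4 (log2 difference 0.63, SE 0.16, adjusted p = 0.012). Pfkm, the muscle-type subunit, showed almost the same value in every library, from 14649 to 15448 and from 14014 to 15911, with a log2 difference of 0.01 and a 95% interval of -0.10 to 0.11.

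The bifunctional enzymes that make and break fructose 2,6-bisphosphate, the main activator of phosphofructokinase, include the member with the highest difference. Pfkfb3, the form with the strongest kinase bias, had 999, 1245, 1451 and 1299 normalized counts in the libraries labelled untreated and 3020, 3891, 2876, 3518 and 3452 in those labelled iAs. The lowest iAs library lay well above the highest untreated one, and the mean was 2.68-fold higher (log2 difference 1.43, SE 0.11, adjusted p = 6.6e-06). Pfkfb4, a related form, rose from 417 ± 54.3 (SD, n = 4) to 566 ± 61.2 (SD, n = 5), a log2 difference of 0.44 (adjusted p = 0.014). Its difference was 0.30 within the code ending 52, where it was not called (adjusted p = 0.17), and 0.34 without untreated replicate 4 and iAs replicate 2 (adjusted p = 0.053). Pfkfb2, the form of heart and islets, did not pass, at 4555 ± 833 against 4243 ± 464 (log2 difference -0.09, 95% interval -0.33 to 0.15).

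**Figure D2:**
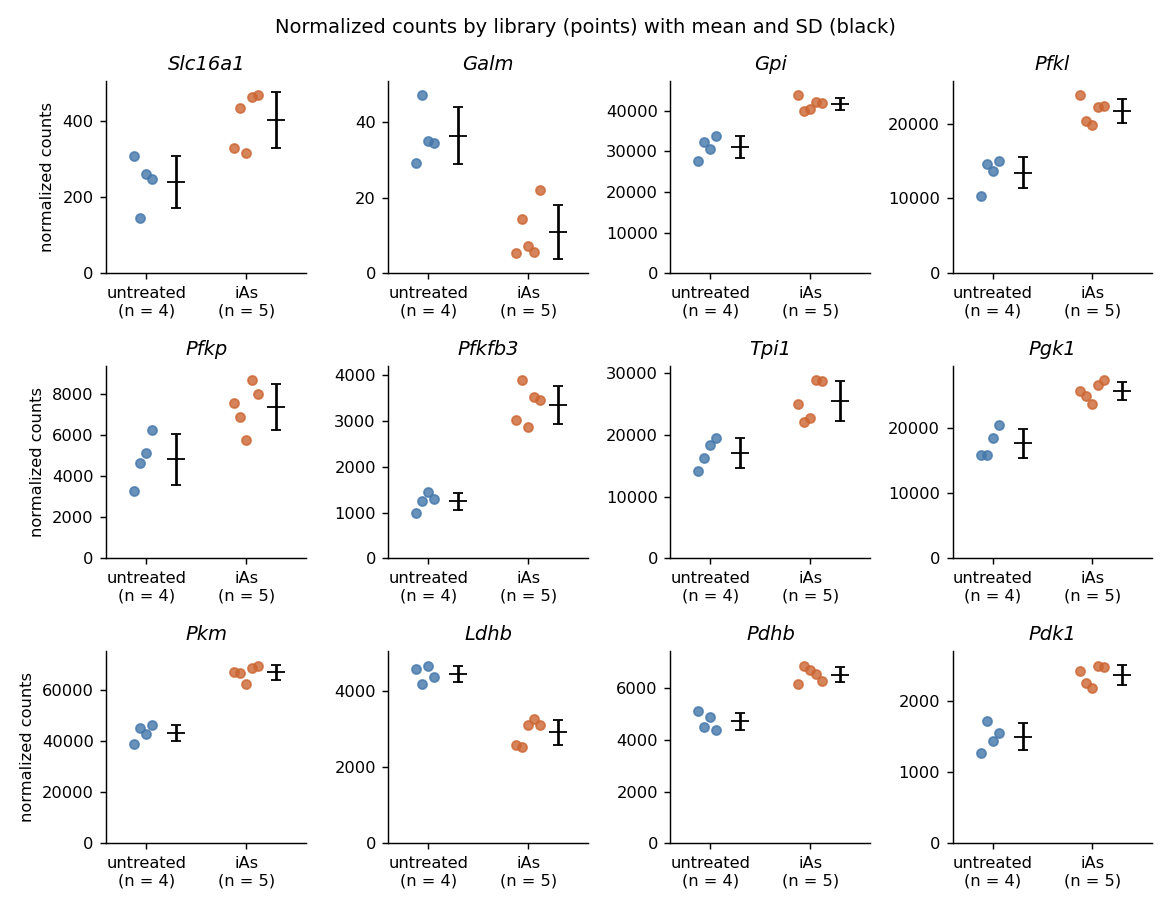
Normalized counts of 12 members in each library (points; 4 labelled untreated in blue and 5 labelled iAs in orange, replicates in order from left to right), with the mean and SD of each group in black and each vertical axis starting at 0. The groups are separate in all panels except Pfkp, where iAs replicate 3 lies under untreated replicate 4, and Galm and Ldhb are the panels in which the iAs points are the lower ones.

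From the trioses to pyruvate 5 of 9 tested members rose. Tpi1, the triose phosphate isomerase, had 14110, 16236, 18333 and 19578 normalized counts in the libraries labelled untreated and 25100, 22089, 22705, 28866 and 28789 in those labelled iAs (log2 difference 0.58, SE 0.11, adjusted p = 0.0017). Pgk1, the first ATP-forming step, had 15842, 15911, 18459 and 20512 against 25802, 25046, 23806, 26720 and 27399 (log2 difference 0.55, SE 0.08, adjusted p = 0.000337). Both genes were higher in every iAs library than in any untreated library. Pkm, the pyruvate kinase that closes the pathway, had 38876, 44976, 42932 and 46192 against 67220, 66500, 62385, 68669 and 69592. Its untreated and iAs values were each tight, with coefficients of variation of 7.42% and 4.16%, and its mean was 1.55-fold higher (log2 difference 0.63, SE 0.06, adjusted p = 3.3e-05). Whether this reads as the M1 or the M2 form cannot be said from a gene-level value. Pgam1, the phosphoglycerate mutase, and Eno1, the common enolase, rose by log2 differences of 0.42 (adjusted p = 0.000295) and 0.48 (adjusted p = 0.000451), with no overlap.

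The remaining members of this stretch did not pass. Aldoa, the main aldolase, ran from 47437 to 74883 normalized counts in the libraries labelled untreated, which enclosed all 5 iAs values (59930 to 72243; log2 difference 0.16, adjusted p = 0.29). It was called without untreated replicate 4 (0.27, adjusted p = 0.045) and within the code ending 52 (0.42, adjusted p = 0.019). The brain-type Aldoc differed by 0.31 (adjusted p = 0.17). Eno2, the neuronal and endocrine enolase, had 1662 ± 233 and 1563 ± 231 normalized counts (log2 difference -0.09, 95% interval -0.34 to 0.16). Bpgm, which makes 2,3-bisphosphoglycerate, differed by 0.02 (95% interval -0.23 to 0.27). Aldoa, Tpi1, Pgk1, Pgam1, Eno1 and Pkm have pseudogene copies in mammalian genomes, and how reads shared with such copies were assigned is not given in the sources used here.

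Summed over the 12 measured genes from Gpi to Pkm (Gpi, Pfkl, Pfkm, Pfkp, Aldoa, Aldoc, Tpi1, Pgk1, Pgam1, Eno1, Eno2 and Pkm), the pathway took 0.517%, 0.615%, 0.584% and 0.658% of all normalized counts in the libraries labelled untreated. The shares were 0.809%, 0.762%, 0.744%, 0.781% and 0.799% in those labelled iAs, all above the untreated values. Within the untreated group replicate 1 had the lowest of the 4 values for 11 of the 16 members that rose, and replicate 4 the highest for 10. The median deviation of the 16 genes from their untreated mean was -0.15 (log2) in replicate 1 and 0.10 in replicate 4. The median over all genes tested was 0.00 in both, but the scaling of the libraries holds it near 0, so it is no contrast. How often all genes had their lowest or highest value in these replicates was not counted, so these counts are not read as a trait of the members. Without untreated replicate 1 the rises numbered 15, and without untreated replicate 4 they numbered 18.

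The NADH of glycolysis is reoxidised in part by lactate dehydrogenase, and its gene Ldhb fell. Ldhb, the heart-type subunit, had 4576, 4185, 4669 and 4366 normalized counts in the libraries labelled untreated and 2581, 2530, 3104, 3255 and 3111 in those labelled iAs. All iAs libraries were lower, by a log2 difference of -0.62 (SE 0.08, adjusted p = 0.000195), which is a mean level at 0.655 of the untreated one. Ldha, the other subunit, was listed at 0, so no balance of the subunits could be given.

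Genes that take pyruvate into mitochondria and oxidise it did not move as a block. Mpc1, an obligatory subunit of the mitochondrial pyruvate carrier, had 3462, 3166, 3394 and 3573 normalized counts in the libraries labelled untreated and 2415, 2413, 2423, 2594 and 2696 in those labelled iAs, a fall with no overlap (log2 difference -0.44, SE 0.06, adjusted p = 0.000189). Its partner Mpc2 differed by -0.28 and did not pass (adjusted p = 0.12). Without iAs replicate 2, which at 524 stood above the other iAs libraries (405 to 408), Mpc2 was called as lower (-0.35, adjusted p = 0.049), and it was called without untreated replicate 2 as well (-0.37, adjusted p = 0.048). With the code ending as a covariate it was also called (-0.27, adjusted p = 0.025). The 2 subunit genes of the E1 component of pyruvate dehydrogenase, which turns pyruvate into acetyl-CoA, both rose. Pdhb had 5104, 4514, 4887 and 4388 normalized counts in the libraries labelled untreated and 6167, 6883, 6708, 6545 and 6300 in those labelled iAs (log2 difference 0.47, SE 0.06, adjusted p = 0.000133). Pdha1 rose by a log2 difference of 0.39 (adjusted p = 0.0047), also with no overlap. Dlat, the E2 component of the same complex, did not pass (0.11, 95% interval -0.02 to 0.25).

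The kinases that switch pyruvate dehydrogenase off went in unlike ways. Pdk1, a known hypoxia target, had 1272, 1725, 1440 and 1554 normalized counts in the libraries labelled untreated and 2429, 2258, 2179, 2499 and 2475 in those labelled iAs. The groups were separate (log2 difference 0.67, SE 0.09, adjusted p = 0.000156). Pdk3 rose by 0.28 (adjusted p = 0.0068), without overlap, although not within the code ending 52 alone (0.27, adjusted p = 0.059). Pdk2, the most widely expressed of the kinases, had 564, 563, 580 and 470 normalized counts against 446, 445, 449, 487 and 465. It did not pass (log2 difference -0.24, adjusted p = 0.057) and was called without untreated replicate 4 (-0.31, adjusted p = 0.017) and without both that library and iAs replicate 2 (-0.30, adjusted p = 0.025). Equal library totals, quantile normalization, limma without the trend and the code ending as a covariate called it too.

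Relatives within a step were then compared by the ratio of their normalized counts in each library, for the 11 of 15 listed pairs of which both genes were tested. The size of such a ratio depends on the lengths of the transcripts, so only its change between groups was read. Exact two-sided permutation tests over the 9 libraries were adjusted over the 11 pairs, and the smallest p that 4 against 5 libraries can give is 0.0159. The ratio of Pfkfb3 to Pfkfb2 was 0.238, 0.219, 0.314 and 0.348 in the libraries labelled untreated and 0.599, 0.948, 0.686, 0.906 and 0.866 in those labelled iAs. This was a log2 change of 1.52 without overlap (exact permutation p = 0.0159, adjusted p = 0.0437). The ratio of Pfkm to Pfkl was 1.41, 1.06, 1.11 and 1.00 against 0.635, 0.689, 0.773, 0.715 and 0.699, a log2 change of -0.70 with the same p-values. The ratio of Pdk1 to Pdk2 was 2.26, 3.07, 2.48 and 3.31 against 5.45, 5.07, 4.86, 5.13 and 5.32, a log2 change of 0.91, also with the same p-values. The phosphoglucomutases showed a small shift with the same p-values, a log2 change of -0.22 in Pgm2 to Pgm1, although neither gene passed alone. Its groups were barely separate, with a highest iAs ratio of 0.417 and a lowest untreated ratio of 0.428. All 4 called pairs sat at the smallest possible p, so the test does not rank them. Each adjusted p depends on this tie.

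The ratio of Eno2 to Eno1 changed by -0.57 in log2 and that of Slc16a3 to Slc16a1 by -1.38, neither past the threshold after adjustment (exact permutation p = 0.0317 and 0.0476, adjusted p = 0.0698 and 0.0873). With a pseudocount of 10 the ratio of Slc16a3 to Slc16a1 passed (-1.21, adjusted p = 0.0349), which made 5 called pairs. The ratios of Pfkp to Pfkl (-0.07), Pdhb to Pdha1 (0.08), Mpc2 to Mpc1 (0.16), Aldoc to Aldoa (0.15) and Slc2a1 to Slc2a2, the beta cell glucose transporter (-0.15), had exact permutation p-values between 0.302 and 0.556. With any 1 library left out the smallest possible p grows, and none of the 4 calls passed (adjusted p between 0.0629 and 0.0982), while the 4 changes kept their direction.

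**Figure D3:**
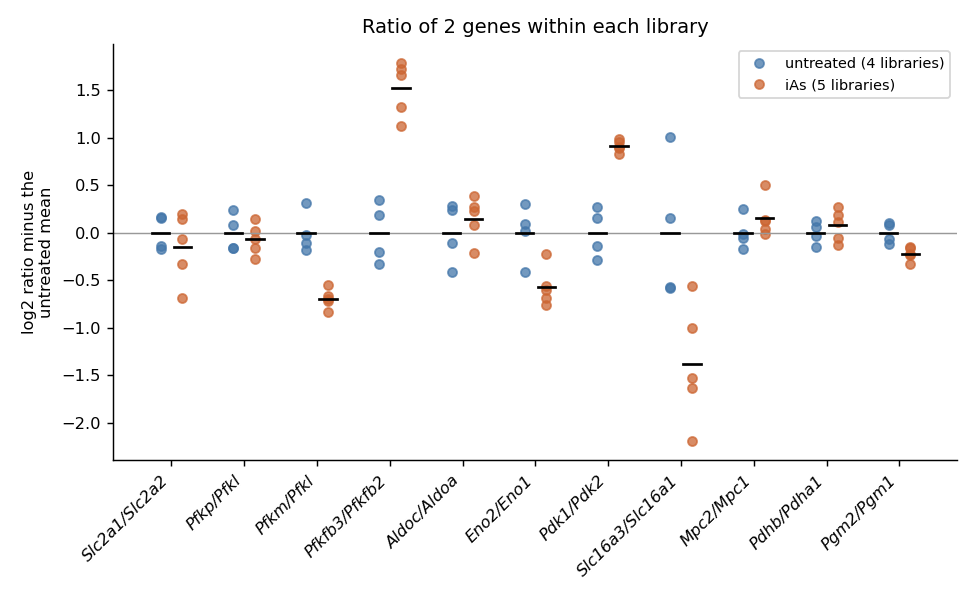
Log2 ratio of 2 genes within each library, shown as the difference from the mean of the untreated libraries (points; 4 labelled untreated in blue, 5 labelled iAs in orange), with the group means as black lines. The groups are separate for Pfkm/Pfkl, Pfkfb3/Pfkfb2, Pdk1/Pdk2 and Pgm2/Pgm1, and they overlap for the other pairs.

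Genes of the neighbouring pathways were taken from 9 fixed lists, of which 95 genes were tested. Among them 24 rose (25.3%) and 11 fell (11.6%), against 15.1% and 14.9% of all genes tested, and 47 had a positive and 48 a negative log2 difference. In the list of glucose entry in beta cells Slc2a2, the GLUT2 gene, rose from a mean of 20754 normalized counts to 29969, with overlapping groups (log2 difference 0.53, adjusted p = 0.011). Khk, the fructokinase (-0.66), and G6pc3, a widely expressed glucose 6-phosphatase (-0.33), fell. The pentose phosphate pathway, which branches off at glucose 6-phosphate, had 5 rises and 1 fall among 10 genes. Its transketolase Tkt (0.44, adjusted p = 0.000141), Rpia (0.58), Prps2 (0.33), Pgls (0.28) and Prps1 (0.24) rose, and the ribokinase Rbks fell (-0.50).

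In the list of gluconeogenesis and glycogen 2 of 15 genes rose. They were the branching enzyme Gbe1, from 590 ± 90.5 to 1136 ± 151 normalized counts (log2 difference 0.94, adjusted p = 0.000155), and Ppp1r3c, a glycogen-targeting phosphatase subunit (1.03). None fell by limma, although 4 genes had a lower level at an unadjusted p under 0.05, and 1 gene, Fbp1 or Phkg2, was called lower without iAs replicate 2 or 3. Of 16 genes of the TCA cycle Suclg2 (0.30), Suclg1 (0.23) and Idh3g (0.19) rose. Citrate synthase, Cs, did not pass (0.05, adjusted p = 0.47). Of 10 genes of the NADH shuttles the cytosolic glycerol 3-phosphate dehydrogenase Gpd1 rose from 10462 ± 1053 to 17889 ± 2390 normalized counts (log2 difference 0.77, adjusted p = 0.000128). Gpd2, its mitochondrial partner (0.23), and Got2 (0.19) rose as well, while 2 genes of the malate-aspartate shuttle, Mdh1 (-0.28) and Slc25a11 (-0.15), fell. Among 10 further genes of pyruvate metabolism the malic enzyme Me1 fell (-0.44, adjusted p = 9.3e-05), and the pyruvate dehydrogenase phosphatase genes Pdp1 (0.24) and Pdpr (0.26) rose.

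Of 8 genes of the serine and hexosamine branches Shmt1 (0.31) and Uap1 (0.32) rose and Gnpnat1 fell (-0.21). Psat1, Psph and Shmt2 of this list did not pass and had their highest values in untreated replicate 4 and iAs replicate 2. For Psph these were 5657 and 5619 normalized counts, against 2343 to 3127 in the other libraries, and for Shmt2 9645 and 10715, against 4514 to 6814. Shmt2 was called higher without untreated replicate 4 (0.59, adjusted p = 0.013). Of 7 genes of fructose and polyol entry 2 rose, among them Akr1b1, the aldose reductase (0.34), and the sorbitol dehydrogenase Sord (-0.46) and Pmm1 (-0.29) fell. Among 15 transcription factors and sensors tied to glycolysis 4 rose, the carbohydrate-responsive arrestins Txnip (3.14) and Arrdc4 (1.00), Myc (1.27) and the HIF prolyl hydroxylase Egln3 (1.11), and the mitochondrial coactivator Ppargc1a fell (-1.22). The genes of the hypoxia-inducible factors themselves did not pass, with log2 differences of -0.11 for Hif1a, -0.02 for Epas1 and 0.05 for Arnt. Several small counts of these lists rest on single libraries. Without 1 library the calls of Gnpnat1, Gpd2, Mdh1, Pdp1, Pdpr, Prps1, Slc25a11 and Uap1 were lost in at least 1 case (adjusted p between 0.050 and 0.105). The losses of Pdpr came without untreated replicates 2 and 4 and each iAs replicate, and those of Mdh1 without untreated replicates 1 and 3. Those of Pdp1 came without untreated replicate 3 and iAs replicate 5, and that of Uap1 without untreated replicate 3. Gpd2 lost its call without untreated replicates 1, 3 and 4 and iAs replicates 1, 2 and 3, and Gnpnat1 without the same libraries except iAs replicate 3. Prps1 lost its call without untreated replicates 2 and 4 and iAs replicate 3, and Slc25a11 without untreated replicate 4 and iAs replicate 3. Beside the 2 named genes of each list and those against its main direction, the genes of these lists were named after their values were seen.

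**Figure D4:**
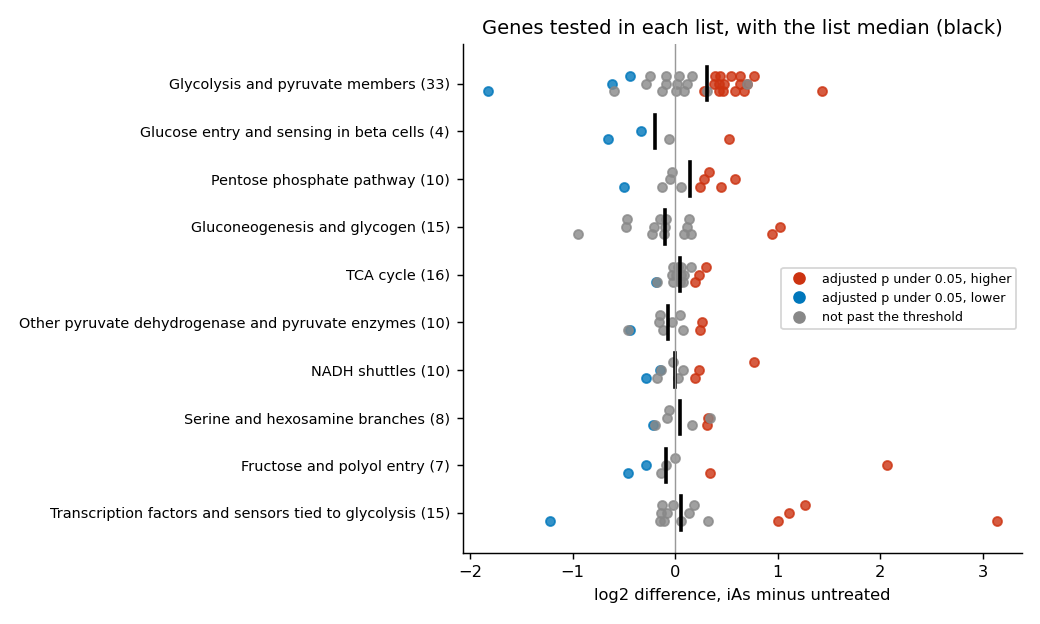
Log2 difference (iAs minus untreated) of every tested gene in the glycolysis set and in the 9 neighbouring lists (points, with the number tested in brackets; red passed the threshold and was higher, blue passed it and was lower, grey did not pass), with the median of each list as a black line. The median of the glycolysis set lies at 0.31, and Txnip is the point at 3.14 in the lowest row.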

How the data were processed

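The values are a signal deposited by the authors: normalized counts, that is read counts scaled by DESeq2 factors, going by the table name in the labels and the tool list. Per the submitters' processing notes DESeq2, STAR, Salmon and the build rn6 were used, and no role or version is given in the sources used here. Each column was assigned by the code that a sample's description carries. The title of 4 libraries carries another code, in each case of the same group. The lowest step among the values lies at 0.811 to 1.20 normalized counts. Whole reads were not recovered from it, so no count test was run. The test was limma-trend (limma 3.58.1, R 4.3.3) without pairing, applied to log2(value + 1) of the 14410 genes with a mean of at least 10, with Benjamini-Hochberg adjustment and a threshold of 0.05. Tested on simulated data of 14410 genes, it found 66% of the genes given a 1.5-fold change and 79% given a 2-fold change, and it made 5 false calls. The simulation changed 100 genes at each fold, whereas 30.0% of all genes were called in the real data. Its noise was drawn independently for each gene and library, with no deviation shared between libraries and no lane difference. These rates therefore need not hold for the real data. The members, lists and pairs were chosen with earlier results of these data known. Values in every library are given for called members with a log2 difference of at least 0.5 in size and for the smallest adjusted p of each role. From each list the 2 genes with the smallest adjusted p and those called against its main direction are named, except that some genes of these lists are not reported here. Alternatives were other pseudocounts, filters, scalings, variance models, blocks and single libraries left out. Small RNA values were not used.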

Additional observations from a re-analysis of the deposited data

Results flagged for a closer look

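In each group, the values of every member, of the pair ratios and of the other genes named in the text were searched for a library that stood apart by more than Dixon's 95% limit. This was so in 20 of 198 groups of values, where chance gives about 1 group in 20. Psat1, Psph, Shmt2, Gpt2 and several other genes were added after their values were seen, so the total is not a fair count against chance. Untreated replicate 4 or iAs replicate 2, which share their code ending, was the library in 16 of the 20. Among the members, untreated replicate 4 was low for Pfkfb4 (336 normalized counts) and Pdk2 (470), and iAs replicate 2 was high for Mpc2 (524) and low for Aldoc (326). Pfkfb2 was high in iAs replicate 1 (5045), and Pfkfb4 was low in iAs replicate 5 (461).

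Among the other genes, untreated replicate 4 was high for Psph (5657), Shmt2 (9645), Gpt2 (1878), Prps2 (1572), Myc (5384) and Serpina1 (528). Replicate 2 of iAs was high for Psph (5619), Shmt2 (10715), Gpt2 (1540), Psat1 (11511) and Fbp1 (166) and low for Thy1 (5782). Untreated replicate 2 was low for Gnpnat1 (1850) and Rplp0 (104410).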

How the results depend on the processing

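The members called higher numbered 16 and ran from 13 to 18 over 21 alternatives. Those called lower numbered 3 and ran from 2 to 5, with 5 under equal library totals and 5 with the code ending as a covariate. Of the 19 called members 14 were called in every alternative that gave a value for them, and no called member reversed. The exceptions were Slc2a1, Slc16a1, Galm, Pfkfb4 and Pdk3. Of the 14 members not called, Slc2a3, Pgm2, Aldoa, Mpc2 and Pdk2 were called in at least 1 alternative. The count of all genes called with iAs was 4321, and it was 2766 with a replicate block over the numbers the groups share, a fit that also leaves out iAs replicate 5. Leaving out that library alone gave 3751. Among the members the replicate block called 13 higher and 3 lower, against 15 and 3 without that library alone. Slc16a1 and Pdk3 lost their calls under the block (adjusted p = 0.0695 and 0.0622), as did Slc2a1 (0.110), which leaving out iAs replicate 5 already cost its call. Same-numbered libraries did not deviate together (correlations from -0.04 to 0.03), so pairing by number was not seen, though these values cannot exclude it. Untreated 4 correlated best with iAs 2 (0.17), which has the same code ending. Leaving out both of these libraries, an alternative chosen after seeing the data, called 3873 genes and 15 members higher and 4 lower. With the code ending as a covariate 5278 genes were called. For the ratio of isozyme or partner pairs 4 pairs were called, 5 with a pseudocount of 10, and the count ran from 0 to 0 when any 1 library was left out. Galm and Slc16a3 have no value at a mean of at least 50. Depth limits Galm, Slc16a3 and Hk2 most.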
